A study of Mus musculus with 6 samples.

Results

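Zfp335 is a nuclear zinc finger protein that was first described as a partner of the nuclear receptor coactivator Ncoa6 and that associates with the protein complexes that methylate lysine 4 of histone H3 (H3K4). The 10 genes described here are Zfp335 itself and 9 genes of those complexes, Ncoa6, Ash2l, Rbbp5, Wdr5, Dpy30, Kmt2a, Kmt2d, Paxip1 and Hcfc1. They were taken from the count table by their symbols, and all 10 were among its 13709 gene rows. The libraries came from CD4+YFP+CD25+ Tregs, the Foxp3-expressing CD4+ T cells that restrain other T cells, from 3 WT and 3 KO samples of C57BL/6 mice. Both genotypes carried Foxp3Cre, in which YFP fused to Cre is made from the Foxp3 locus, so the WT samples were Foxp3Cre and the KO samples were Foxp3Cre Zfp335fl/fl. All mice were 2 weeks old. Deletion was therefore directed to cells that had expressed Foxp3, and other cells were not measured in these libraries. Which exons were flanked by loxP sites was not given in the sources used here. The labels named both lymph nodes and spleen as the tissue, and they did not say whether a sample came from 1 mouse or several, so p-values measure the spread between these samples only.

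H3K4 methylation is a mark of active promoters and enhancers. It is written by large complexes, each built around 1 catalytic SET domain protein of the KMT2 (MLL) or SETD1 family. All of these complexes share a core of Wdr5, Rbbp5, Ash2l and Dpy30, which hold the catalytic subunit in an active form. Further subunits set the complexes apart. Ncoa6, Paxip1, Pagr1a and the demethylase Kdm6a belong to the Kmt2c and Kmt2d complexes, which act mainly at enhancers, whereas Hcfc1 joins the SETD1 complexes and those of Kmt2a and Kmt2b, which act mainly at promoters. Kmt2a is known in lymphocytes for maintaining gene expression in memory T helper cells, and Kmt2d is a frequent target of mutation in lymphoma.

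Total counts per sample ranged from 32032631 to 40728419, and levels are in CPM, counts scaled to a common library size after TMM (trimmed mean of M values) normalization. The least abundant member, Dpy30, had at least 866 counts in every sample. Of 8 markers of CD4+ T cells and Tregs, all present in every sample, 3 were called lower in KO and 0 higher. Over all genes tested, 12.5% were called lower and 11.9% higher. Foxp3 was 642 to 1189.8 CPM in WT and 459.7 to 472 CPM in KO, a log2 fold change of -0.88 (edgeR adjusted p 0.0122), and -0.57 without WT replicate 3, under the fold cutoff. The transcription factors Ikzf4 (-1.30, edgeR adjusted p 0.000222) and Ikzf2 (-1.11, adjusted p 6.07e-05) were the others called. Cd4, at 646 to 682 CPM in WT and 765 to 814 CPM in KO, was the only one of the 8 with a higher mean in KO. The summed level of 4 B cell markers was 16.0 to 18.1 CPM in WT and 10.8 to 11.0 CPM in KO, that of 2 CD8 T cell markers 9.32 to 13.2 CPM and 12.0 to 12.7 CPM, that of 3 NK cell markers 3.59 to 5.83 CPM and 14.9 to 16.2 CPM, that of 5 myeloid markers 22.1 to 28.4 CPM and 51.2 to 58.0 CPM, and that of 3 erythroid markers 16.0 to 67.1 CPM and 28.5 to 33.5 CPM. The genes within a sum did not all behave alike. Most of the NK sum in KO came from Eomes, which rose from a mean of 2.31 to 11.3 CPM. Klrb1c was called higher too (means 1.65 and 3.48 CPM). Ncr1, with means of 0.384 and 0.94 CPM and as few as 4 counts, was not called. Of the CD8 markers, Cd8a was called higher (means 1.86 and 3.71 CPM) and Cd8b1 was not called (9.16 and 8.69 CPM). None of the markers in these sums was at 0 in any sample, and the part of such cells in the results was not tested. WT replicate 3 stood apart from the other WT replicates on the second principal component of log2 CPM, at -58.9 against 22.1 and 34.4, and its weight is given beside the calls and signs it decides. In bulk RNA, fewer cells of a type and less RNA per cell cannot be told apart.

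Zfp335 was measured in every sample first. It was 101 CPM in WT replicate 1, 94.3 CPM in WT replicate 2 and 103 CPM in WT replicate 3, and 37.0, 37.9 and 40.2 CPM in KO replicates 1 to 3. All 3 KO samples were below all 3 WT samples, and the KO mean of 38.3 ± 1.66 CPM (SD, n = 3) was 38.6% of the WT mean of 99.4 ± 4.50 CPM (SD, n = 3). The log2 fold change of KO against WT, called the log2 ratio from here on, was -1.37 (SE 0.07, 95% interval -1.54 to -1.21, edgeR adjusted p 2.14e-05). Zfp335 lies on the minus strand of chromosome 2 at 164891882 to 164911757 (GRCm38), and its coding transcript has 28 exons. The exons of Pcif1, a protein-coding gene on the opposite strand, cover 1107 bases of Zfp335 exons, 23.3% of their total, and those of the antisense gene Zfp335os cover 234 bases. Pcif1, an mRNA cap methyltransferase, was 134, 136 and 132 CPM in WT against 140.1, 147 and 143 CPM in KO and was not called (log2 ratio 0.10 with SE 0.06, edgeR adjusted p 0.242). Whether the counts used the strand of the reads was not given in the sources used here, and the part of the Zfp335 counts that came from shared bases was not tested.

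Of the 10 members, 2 passed the study's cutoffs of a fold change above 1.5, p under 0.05 and adjusted p under 0.1. Zfp335 was lower and Paxip1 was higher. Over all 13594 genes tested, 24.4% passed these cutoffs, 11.9% higher and 12.5% lower. Zfp335 is the deleted gene, so its call was set by the design. Of the 9 partners, 1 was called, and 9 genes are too few to set beside that share. Without the fold cutoff, 7 members had an edgeR adjusted p under 0.1, 4 of them higher and 3 lower in KO, against 47.0% of all genes (22.7% higher and 24.3% lower). WT and KO values did not overlap for 8 members, 5 higher and 3 lower, against 53.8% of all genes (26.2% higher and 27.6% lower). Without Zfp335, 6 partners had an edgeR adjusted p under 0.1, 4 higher and 2 lower. The groups did not overlap for 7 partners, 5 higher and 2 lower. The median log2 fold change of the 9 partners was 0.16, beside -0.04 over all genes. The partners ranged from -0.40 for Kmt2d to 0.74 for Paxip1.

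**Figure D1:**
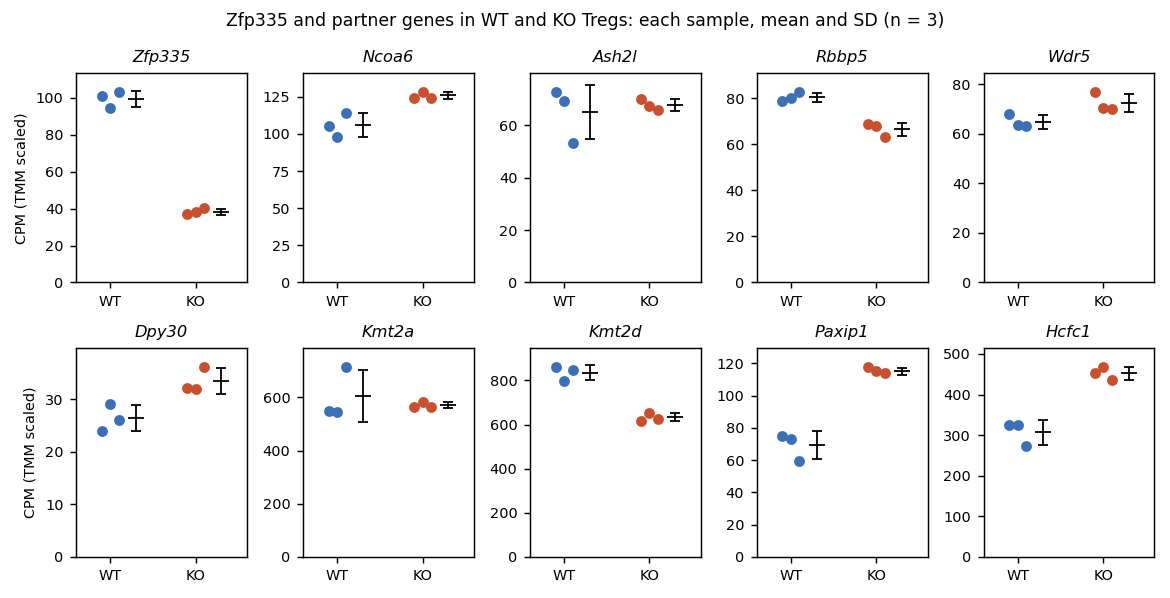
CPM (TMM scaled, vertical axis from 0) of Zfp335 and its 9 partners in each WT sample (blue) and KO sample (orange-red), with the mean and SD of 3 samples beside them. Zfp335 is lower and Paxip1 and Hcfc1 are higher in all 3 KO samples, and the groups overlap for Ash2l and Kmt2a.

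The promoters of the 2 called members are shown here as sequence. Zfp335 is the deleted gene, and no link between these windows and the differences was tested. They are RefSeq windows of GRCm38.p6 from 250 bases before to 50 bases after the start site, on the minus strand, at chr2:164911701-164912000 for Zfp335 and chr5:27791501-27791800 for Paxip1. Capitals mark matches on either strand to 7 motifs that were searched, the ETS core CCGGAAG, the GC box GGGCGG, the CCAAT box, the TATA box TATAAA, the NRF1 and YY1 sites and the CRE site TGACGTCA, the last of which was added after the Zfp335 sequence had been seen.
Zfp335: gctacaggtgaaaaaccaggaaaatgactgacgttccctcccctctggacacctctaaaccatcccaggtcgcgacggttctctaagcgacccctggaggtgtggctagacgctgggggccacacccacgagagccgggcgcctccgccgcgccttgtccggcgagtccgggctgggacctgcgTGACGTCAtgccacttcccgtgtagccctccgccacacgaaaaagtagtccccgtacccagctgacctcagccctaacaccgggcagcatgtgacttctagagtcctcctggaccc
Paxip1: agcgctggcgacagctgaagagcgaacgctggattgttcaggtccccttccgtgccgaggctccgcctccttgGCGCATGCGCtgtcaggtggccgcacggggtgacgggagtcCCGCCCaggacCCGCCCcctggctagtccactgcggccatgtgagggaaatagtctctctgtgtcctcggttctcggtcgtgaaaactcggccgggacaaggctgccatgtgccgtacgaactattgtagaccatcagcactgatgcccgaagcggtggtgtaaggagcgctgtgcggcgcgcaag

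The Zfp335 window held 1 CRE site, which 1.88% of 27025 promoters held. The Paxip1 window held 1 NRF1 site, the first capitals in it, which 0.977% of promoters held, and 2 GC boxes, which occurred in 35.9%. Neither window held an ETS core (9.12% of promoters), a CCAAT box (37.9%), a YY1 site (0.699%) or a TATA box (14.2%). Both were rich in CpG, at 22 CpG in Zfp335 and 28 in Paxip1. The ratio of observed to expected CpG was 0.757 and 0.914, against a median of 0.389 over all promoters. A window was given for 9 of the 10 members, all but Ash2l, and the Hcfc1 window held 2 YY1 matches. The motif matches are letters in these windows and were not measured as binding.

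Paxip1, which encodes PTIP, a BRCT domain protein of the Kmt2c and Kmt2d complexes that also acts in DNA repair, differed most among the partners. It was 75.2, 73.2 and 59.2 CPM across the WT replicates, against 118, 115 and 114 CPM across the KO replicates. Every KO sample was above every WT sample, and WT replicate 3 was the lowest. The mean rose from 69.2 ± 8.72 to 115 ± 1.98 CPM (SD, n = 3), a log2 fold change of 0.74 (SE 0.10, 95% interval 0.51 to 0.96, edgeR adjusted p 0.000971). Without WT replicate 3 it was 0.63, still past the cutoffs. It did not pass the stricter glmTreat, which tests for a fold above 1.5 (adjusted p 0.161).

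Pagr1a, which encodes PA1, the direct partner of PTIP in the same complexes, was called in the opposite direction. It was 80.4, 74.2 and 65.9 CPM in WT against 48.0, 44.3 and 45.1 CPM in KO, and the groups did not overlap. The log2 ratio was -0.68 (SE 0.09, edgeR adjusted p 0.00100). The ratio of Paxip1 to Pagr1a, each as CPM per kilobase of its longest coding transcript, was 0.229, 0.241 and 0.220 in WT and 0.598, 0.633 and 0.616 in KO. This pair was chosen after the values were seen, and its ratio is a description. Pagr1a counts are uncertain, because 98.7% of its exon bases are shared with Gm42742 and 24.3% with its copy Pagr1b. With offsets for GC content and length its log2 fold change was -0.57, just under the fold cutoff.

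Kmt2d, the catalytic subunit of one of these complexes and the member with the highest WT mean per length, was lower in KO but under the fold cutoff. It was 863, 798 and 847 CPM across the WT replicates, against 618, 654 and 627 CPM across the KO replicates. The groups did not overlap, and the level averaged 836 ± 34.0 CPM in WT against 633 ± 18.9 CPM in KO (SD, n = 3). The log2 ratio was -0.40 (SE 0.07, 95% interval -0.55 to -0.25, edgeR adjusted p 0.00235). The Kmt2d transcript has a GC content of 58.4%, and the 2702 genes between 55.7 and 71.3% had a median log2 ratio of -0.11, against -0.02 for those between 31.8 and 43.9%. With offsets for GC content and length, the value for Kmt2d was -0.14 (adjusted p 0.0866), so most of its size depends on that setting. Its longest coding transcript was 19.8 kb, and the parts of GC content and length in this shift were not separated. For Zfp335, also in that GC range at 59.4%, the same offsets gave -1.20. Kmt2c, the other catalytic subunit that works with Paxip1 and Ncoa6, is named here after its values were seen. It averaged 285 ± 18.1 CPM in WT against 211 ± 5.79 CPM in KO (log2 ratio -0.43 with SE 0.07, adjusted p 0.00247), under the fold cutoff too, and -0.35 with the offsets.

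Ncoa6, the coactivator through which Zfp335 was first identified, was 105, 98.1 and 114 CPM in WT against 124, 128 and 124 CPM in KO. The KO samples were above the WT samples, by 1.19-fold on the fitted scale (log2 ratio 0.25 with SE 0.07, 95% interval 0.08 to 0.42, edgeR adjusted p 0.0313). This size was under the fold cutoff. Ncoa6 thus had the opposite sign to Kmt2d, with which it shares a complex. The ratio of Kmt2d to Ncoa6 per kilobase was 2.94, 2.92 and 2.65 in WT and 1.78, 1.83 and 1.80 in KO, a description chosen after the values were seen. These ratios carry no offsets for GC content and length. With the offsets, the log2 ratio of KO against WT was -0.14 for Kmt2d and 0.29 for Ncoa6. Kdm6a, the H3K27 demethylase of the same complexes, averaged 77.1 ± 5.72 CPM in WT against 104 ± 3.16 CPM in KO (log2 ratio 0.43 with SE 0.08, adjusted p 0.00333). It was also named after its values were seen and was under the fold cutoff.

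The members of the promoter complexes were Kmt2a and Hcfc1. Hcfc1, an X-linked cofactor that tethers histone modifiers to transcription factors and is needed for cell cycle progression, was 324, 325 and 272 CPM across the WT replicates, against 452, 469 and 436 CPM across the KO replicates. The groups did not overlap, and WT replicate 3 was again the lowest. The log2 ratio was 0.56 (SE 0.09, 95% interval 0.36 to 0.76, edgeR adjusted p 0.00195), a fitted fold of 1.47 that lies just below the cutoff. The fitted fold of Paxip1 was 1.67. Hcfc1 was past the cutoffs without WT replicate 1 (0.60), without WT replicate 2 (0.60), without KO replicate 3 (0.59) and with offsets for GC content and length (0.66). Without WT replicate 3 it was 0.48.

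Kmt2a, the founding member of the MLL family, was 550.2, 545 and 716 CPM in WT against 562, 584 and 564 CPM in KO. The groups overlapped, since WT replicate 3 was above every KO sample and the other WT samples were below them. No difference was detected (log2 ratio -0.08 with SE 0.11, edgeR adjusted p 0.597), and the 95% interval of -0.34 to 0.17 corresponds to KO over WT folds of 0.790 to 1.13. The sign turned to 0.05 without WT replicate 3.

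The 4 core subunits differed in the sign of their values. Of these, 0 were called, against 24.4% of all genes, and 4 genes are too few to set beside that share. Rbbp5 was 78.8, 80.2 and 82.6 CPM in WT against 68.6, 67.8 and 63.1 CPM in KO, below WT in every sample (log2 ratio -0.28 with SE 0.07, edgeR adjusted p 0.0142). Dpy30, the smallest subunit, was 24.0, 29.1 and 26.0 CPM in WT against 32.1, 31.9 and 36.2 CPM in KO, above WT in every sample (log2 ratio 0.34 with SE 0.10, adjusted p 0.0348). Wdr5, which docks the complexes onto their catalytic subunits, was 68.1, 63.3 and 63.0 CPM in WT against 76.7, 70.5 and 69.9 CPM in KO. Its groups did not overlap, but it did not pass either test (log2 ratio 0.16 with SE 0.07, 95% interval -0.01 to 0.33, adjusted p 0.126).

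Ash2l, which stimulates the methyltransferase reaction together with Rbbp5, was 72.7, 69.5 and 53.3 CPM in WT against 70.2, 67.3 and 65.9 CPM in KO. The groups overlapped (log2 ratio 0.06 with SE 0.12, 95% interval -0.22 to 0.33, edgeR adjusted p 0.736). WT replicate 3 was the lowest of the 6 samples, and without it the value was -0.07. All 4 core genes were under the fold cutoff, with fitted folds between 0.826 for Rbbp5 and 1.27 for Dpy30.

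Per kilobase of the longest coding transcript, Kmt2d had the highest mean in WT, at 42.2 ± 1.71 CPM per kb. Hcfc1, Kmt2a and Dpy30 followed at 37.1, 36.7 and 33.4 CPM per kb. Their samples overlapped from one gene to the next, and none overlapped Rbbp5 below. Kmt2a also overlapped Kmt2d, since in WT replicate 3 it was at 43.5 against 42.7 CPM per kb, whereas Hcfc1 and Dpy30 stayed below Kmt2d. Rbbp5, Wdr5, Zfp335, Ash2l and Ncoa6, at 23.8, 22.4, 21.7, 19.7 and 14.9 CPM per kb, each overlapped the next. Paxip1 was lowest at 11.8 CPM per kb and did not overlap Ncoa6. In KO the order differed. Hcfc1 was first at 54.7 ± 1.99 CPM per kb, followed without overlap by Dpy30 at 42.3, Kmt2a at 34.6 and Kmt2d at 31.9. Paxip1 lay at 19.7 CPM per kb, overlapping Ash2l and Rbbp5, and Zfp335 was last at 8.36 ± 0.36 CPM per kb. Levels per length rest on the transcript chosen. With the median length over coding transcripts, a choice made after the data were seen, Dpy30 was 38.0, Rbbp5 30.3 and Ash2l 28.3 CPM per kb in WT, whereas Kmt2d kept the highest mean in WT but overlapped both Dpy30 and Kmt2a. The lowest means were again those of Ncoa6 and Paxip1.

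**Figure D2:**
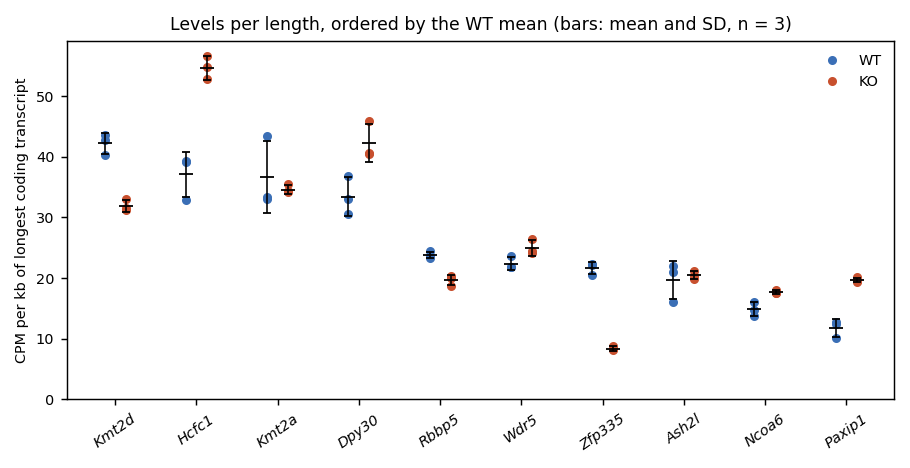
CPM per kilobase of the longest coding transcript (vertical axis from 0) in WT (blue) and KO (orange-red) samples, with mean and SD of 3 samples, ordered by the WT mean. Kmt2d has the highest WT mean at 42.2, with Kmt2a above it in 1 sample, Hcfc1 is highest in KO at 54.7, and Zfp335 is last in KO at 8.36.

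Replicates of the members were close in KO. Their median coefficient of variation was 8.72% in WT and 3.45% in KO, beside 13.8% and 6.57% over all genes. Part of the wider spread in WT came with WT replicate 3. Over all genes, the biological coefficient of variation (edgeR) was 0.263 in WT, 0.126 in WT without that replicate and 0.0702 in KO. WT replicate 3 was 0.39 above the mean of the other WT replicates on the log2 scale for Kmt2a, and 0.42, 0.33 and 0.26 below it for Ash2l, Paxip1 and Hcfc1. The median size of this difference over all genes was 0.25. The 7 proliferation markers were all called higher in KO, where 11.9% of all genes were called higher. They summed to 1268, 1256 and 679 CPM across the WT replicates, against 3298 to 3470.5 CPM in KO. Among the WT replicates, WT replicate 3 was lowest for this sum and for Paxip1, Hcfc1, Ash2l and Wdr5. It was highest for Zfp335, Ncoa6, Rbbp5 and Kmt2a, and lay between the others for Dpy30 and Kmt2d. The part of cycling cells in the differences of the members was not tested.

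Other subunits of the same complexes were compared from a list of 11. Of these, 2 were called, both lower in KO, where 24.4% of all genes were called and 12.5% called lower, and the median log2 fold change was -0.23. The called genes were Pagr1a and Setd1b, the catalytic subunit of a SETD1 complex. Setd1b was 152, 138 and 211 CPM in WT against 105, 107 and 116 CPM in KO (log2 ratio -0.61 with SE 0.15, edgeR adjusted p 0.0145). WT replicate 3 was the highest. Leaving it out gave -0.41, as did the GC and length offsets, and leaving out KO replicate 1 gave -0.58, all under the fold cutoff. Kmt2b, the catalytic relative of Kmt2a that was named after its values were seen, averaged 359 ± 15.7 CPM in WT against 293 ± 8.55 CPM in KO (log2 ratio -0.30, adjusted p 0.00963, and -0.10 with the offsets).

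Enzymes that remove H3K4 methylation were compared from a list of 7, of which 1 was called lower, against 12.5% of all genes (median log2 fold change -0.15). This was Kdm5d, the Y-linked H3K4me3 demethylase, at 49.7, 52.0 and 80.4 CPM in WT against 32.7, 32.9 and 32.3 CPM in KO (log2 ratio -0.90 with SE 0.18, edgeR adjusted p 0.00582). Without WT replicate 3 it was -0.64, still past the cutoffs. The other Y-linked genes measured were also highest in WT replicate 3, and Uty and Eif2s3y were called lower too, Eif2s3y only with that sample. Eif2s3y was 56.9, 55.4 and 108 CPM in WT against 39.0, 44.4 and 41.3 CPM in KO, with a log2 ratio of -0.82 that was -0.44 without WT replicate 3, under the fold cutoff. Uty was 13.4, 19.2 and 30.9 CPM and 9.17, 9.53 and 10.5 CPM, with a log2 ratio of -1.12, and -0.75 without that sample. Ddx3y was 48.6, 64.8 and 159 CPM in WT against 47.7, 58.9 and 56.2 CPM in KO and was not called (log2 ratio -0.74, and -0.06 without it). Of 5 genes listed to check sex, these 4 Y-linked genes were in the count table, each with counts in every sample, and Xist was not. The sex of the mice was not given in the labels, and its part in the Kdm5d difference was not tested. The X-linked relative Kdm5c was not called (log2 ratio 0.08, adjusted p 0.414).

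Of 6 other SET domain proteins tested, 3 were called, all lower in KO, against 12.5% of all genes called lower (median log2 fold change -0.49). Smyd2, a lysine methyltransferase of histone and other proteins, averaged 48.7 ± 4.59 CPM in WT against 31.6 ± 0.56 CPM in KO (log2 ratio -0.62 with SE 0.09, edgeR adjusted p 0.00142), but leaving out WT replicate 1 gave -0.55 and the GC and length offsets gave -0.58, under the fold cutoff. An antisense gene shares 30.0% of its exon bases. Its relative Smyd3 was 22.3 ± 1.80 and 13.6 ± 2.24 CPM (log2 ratio -0.71 with SE 0.14, adjusted p 0.00619). Prdm9, the meiotic H3K4 methyltransferase that places recombination hotspots, was 17.4, 11.2 and 12.9 CPM in WT against 7.91, 7.92 and 6.92 CPM in KO (log2 ratio -0.87 with SE 0.18, adjusted p 0.00787). Of the 6 genes tested, the groups did not overlap for 5, all lower in KO, against 53.8% of all genes (27.6% lower).

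Among 10 nuclear receptor coactivators, 0 passed the cutoffs by edgeR or by DESeq2, 2 had an unadjusted p under 0.05 and 2 an adjusted p under 0.1, where 24.4% of all genes were called and 47.0% had an adjusted p under 0.1. Rbm14, which encodes the Ncoa6-binding coactivator CoAA, averaged 54.8 ± 2.94 CPM in WT against 73.9 ± 2.77 CPM in KO (log2 ratio 0.43, adjusted p 0.00286). Ncoa1, a steroid receptor coactivator, was 53.1 ± 9.29 and 40.0 ± 1.47 CPM (-0.41, adjusted p 0.0334), and Ccar1 was 136 ± 6.79 and 151 ± 6.15 CPM (0.15, adjusted p 0.113). Among 11 H3K4me3 readers, 0 passed the cutoffs by edgeR or by DESeq2, 3 had an unadjusted p under 0.05 and 3 an adjusted p under 0.1, beside the same shares of all genes. The last 3 were Ing4, an acetyltransferase subunit with 34.9% of its exon bases shared with Gm44597 (log2 ratio -0.57, adjusted p 0.00195), Taf3, the TFIID subunit that binds H3K4me3 (0.54, adjusted p 0.00264), and Ing2, a subunit of a deacetylase complex (0.45, adjusted p 0.0202).

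**Figure D3:**
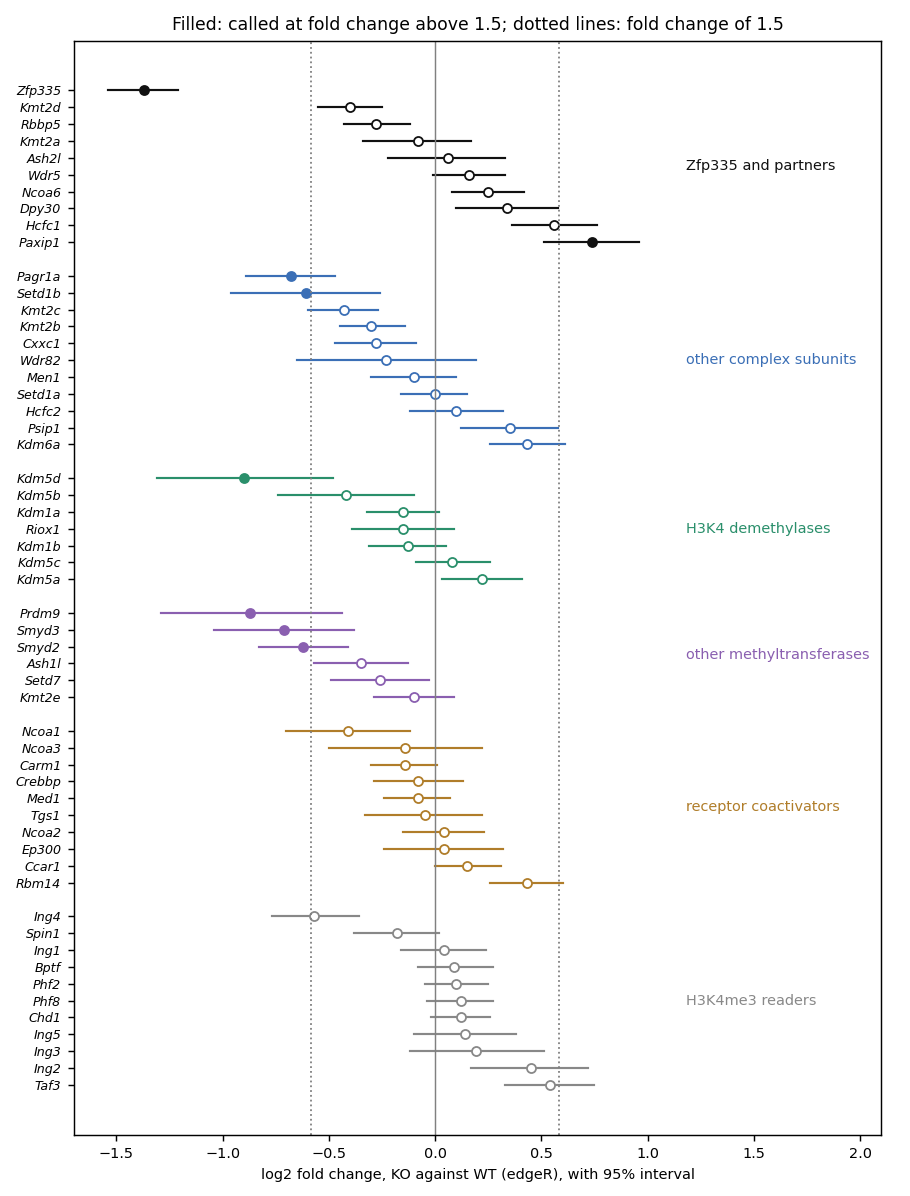
Log2 fold change of KO against WT (edgeR, horizontal axis) with its 95% interval for each gene of the 6 lists, where filled points passed the cutoffs and dotted lines mark a fold change of 1.5. Zfp335 lies at -1.37, beyond every other gene shown, and Paxip1, at 0.74, is the only filled point on the higher side.

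The genes whose profile was most like that of Zfp335 were found by the root mean square difference of log2 CPM over the 6 samples, each gene centered on its mean, among the 9881 other genes averaging 5 CPM or more. Those named here are Mapk11 (0.0446), Znrf1 (0.0483), Arrb1 (0.0600) and Lbh (0.0752). Mapk11, a p38 kinase, was 96.2, 96.0 and 99.3 CPM in WT against 36.7, 39.5 and 40.4 CPM in KO. Like Zfp335 it was steady within each genotype, and WT replicate 3 did not stand apart. The log2 fold changes of these 4 genes lay between -1.32 for Mapk11 and -1.28 for Lbh. These likenesses follow from how the genes were chosen. The distance includes the difference between genotypes, so the partners, at -0.40 to 0.74, could not be among the 5 nearest genes.

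**Figure D4:**
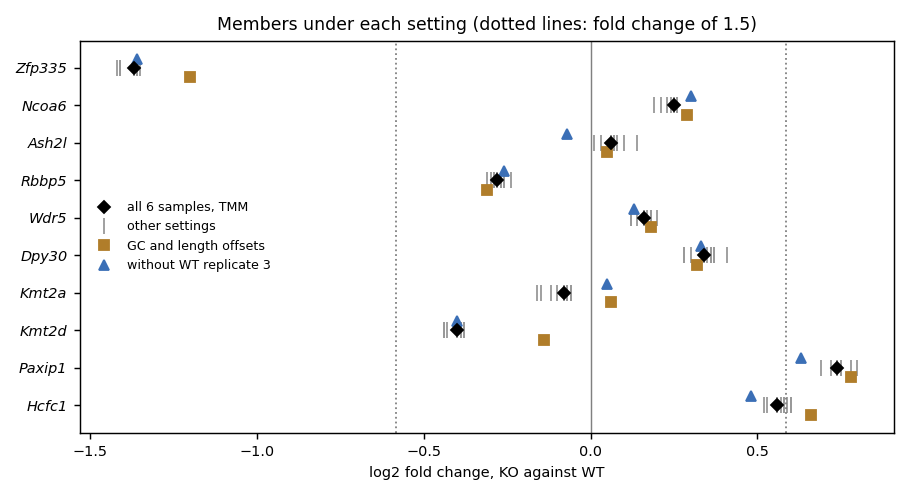
Log2 fold change of KO against WT (horizontal axis) for each member with all 6 samples and TMM scaling (diamonds), with GC and length offsets (squares), without WT replicate 3 (triangles) and under the other settings (bars); dotted lines mark a fold change of 1.5. Zfp335 stays between -1.42 and -1.20, Kmt2d moves from -0.40 to -0.14 with the offsets, and Hcfc1 lies on both sides of the fold cutoff.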

How the data were processed

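RNA-Seq of sorted Tregs from 3 WT and 3 KO samples was used. The authors cleaned reads with SOAPnuke, mapped them with HISAT2 (mm10, at most 1 alignment each) and ran StringTie. The authors deposited whole-number counts per gene without normalization. Gene annotation and strand use were not given in the sources used here. Every gene summed to at least 60 counts, so low genes were already missing.

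Counts were tested with R 4.3.3 and edgeR 4.0.16 (filterByExpr at a minimum count of 10, TMM, quasi-likelihood F-test, two-sided, no covariate) over all 6 samples, with Benjamini-Hochberg adjustment over 13594 genes. The study's cutoffs were kept, and its test, DESeq2 (1.42.0), was an alternative. SE is the log2 fold change divided by the square root of F, and intervals use the moderated degrees of freedom. Between replicates, the median chi-square over genes was 5.24 to 25.1 times the value sampling alone gives, so no sample was merged. The procedure was tested on simulated counts.

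Members and lists were chosen with earlier results of these data known. Named genes are the members, called genes of each list (otherwise the 3 largest differences at 5 CPM or more), and the 5 profiles nearest to Zfp335, of which 1 is not reported here. Lengths, GC content and exon overlaps came from GENCODE M21 (GRCm38, the assembly of mm10), which covered 99.4% of genes tested. Promoters came from RefSeq (GRCm38.p6). Protein sequences were not used here. Counting error alone limits precision little at these depths.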

Additional observations from a re-analysis of the deposited data

How the results depend on the processing

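Zfp335 kept its call in all 15 alternatives, between -1.42 and -1.20, and across the fits without 1 sample it ranged from -1.42 to -1.35. The cutoff moved counts most. Requiring only an adjusted p under 0.05, 5244 genes, 7 members, 7 other complex subunits, 2 demethylases, 2 coactivators and 3 readers passed. With glmTreat against a fold change of 1.5, 1686 genes and 1 member (Zfp335) passed, and 0 complex subunits, 0 demethylases and 0 other SET domain proteins did. By construction, glmTreat asks for more than the cutoff. Offsets for GC content and length left 0 of the 11 other complex subunits called, and library totals alone called 1 reader, Ing4; the cause was not tested. Leaving out 1 sample gave 2867 to 3667 calls over all genes, 2 to 3 among members, 1 to 2 among other complex subunits (1 without WT replicate 3, Pagr1a, and 1 without KO replicate 1, Pagr1a), 1 among demethylases, 2 to 3 among other SET domain proteins, 0 among coactivators and 0 to 2 among readers (2 without WT replicate 3, 1 without KO replicate 1). Across the fits without 1 sample Ash2l ranged from -0.07 to 0.14 and Kmt2a from -0.16 to 0.05. Signs turned for Ash2l without WT replicate 3 (-0.07) and for Kmt2a without WT replicate 3 (0.05) and with the offsets (0.06), none of them called. Samples with the same number are not known to be paired, and their deviations correlated at -0.0116 to 0.0404; with the replicate block 3190 genes and 2 members were called, and Zfp335 was at -1.37. The all-gene median moved by less than 0.1 under each scaling.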
